A study of Mus musculus with 6 samples.

Results

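Peroxisomes are small organelles that shorten very long and branched fatty acids, start the synthesis of ether lipids and break down hydrogen peroxide. The genes described here are 37 mouse genes of that organelle, chosen by name: peroxins, ABCD transporters and other membrane proteins, enzymes of peroxisomal fatty acid oxidation, ether lipid enzymes and catalase. All 37 were among the 24421 genes of the deposited table, and 34 had a mean of at least 0.5 RPKM (reads corrected for the length of a gene and the size of a library) over the 6 samples and were tested. Messenger RNA had been sequenced from primary wild-type naive CD4 T cells of mouse spleen that were polarised towards Th17, the helper T cells known for interleukin 17. The 3 pemafibrate samples, numbered 3, 7 and 8, received 10 nM pemafibrate, a fibrate drug that acts on the receptor PPARalpha, until day 2, and the 3 vehicle samples, numbered 3, 4 and 7, received vehicle. Both groups were then kept for 2 days more in IMDM with 10% serum, so the RNA was taken after a period without stated drug. The labels give no strain, age or number of mice and do not say whether samples came from separate animals or cultures; p-values therefore reflect nothing beyond the variation among the 6 samples, possibly technical.

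Peroxins, the Pex proteins, build the organelle: some insert membrane proteins, and others carry enzymes from the cytosol into the matrix and recycle the carriers. In rodent liver, agonists of PPARalpha are known to enlarge the peroxisome population and to raise peroxisomal oxidation enzymes, which gave these drugs the name peroxisome proliferators. The comparison therefore addresses whether the same gene set differs between pemafibrate and vehicle in T cells.

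The 6 libraries held 14935351 to 18322467 reads, as implied by the RPKM values. All 10 CD4 T cell markers were above 0.5 RPKM, and their summed level ran from 2270 to 2343 RPKM in vehicle and from 2241 to 2325 RPKM in pemafibrate. The 12 Th17 markers summed to 2504 to 2713 RPKM in vehicle and 1987 to 2292 RPKM in pemafibrate. Most of that sum was Il17f, with means of 1621 RPKM in vehicle and 1286 RPKM in pemafibrate. The markers did not move together: Ccr6 was higher in pemafibrate (means 23.0 and 33.3 RPKM), and Stat3, Batf and Rora overlapped between the groups. The part of these markers in the results below was not tested. Summed markers of other cells were far lower and overlapped between the groups: 4.86 to 6.98 RPKM for CD8 T cells, 5.59 to 6.78 for B cells and 10.7 to 15.7 for myeloid cells, over all 6 samples. The receptor gene Ppara had between 0 and 2 reads in each library. Pparg, a related receptor, had 1 to 5 reads, and Ppard, the related receptor that was expressed, had a log2 difference of 0.0069. In bulk samples such as these, fewer cells that express a gene and less RNA per cell cannot be told apart.

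The Th17 cultures expressed the basic peroxisomal machinery at moderate levels. The median member had a mean of 9.81 RPKM against 12.8 RPKM for the median tested gene, and the highest tested member was 27.6 times the lowest. Of the 37 genes, 5 had a mean above 20 RPKM, 11 lay between 10 and 20, 16 between 2 and 10, and 2, Pex11g and Ehhadh, between 0.5 and 2. The other 3, Abcd2, Acox2 and Acot4, were close to 0. Gnpat led the order with 48.2 RPKM, followed by Slc25a17 with 40.1 and Hsd17b4 with 27.99 RPKM, and the 6 values of each of these genes lay wholly above those of the next gene. Below them, Cat (24.3 RPKM) and Acaa1a (23.6) overlapped each other, as did Pex14, Agps, Acot8, Scp2, Pex19 and Abcd3, each with its neighbour in the order, from 19.2 down to 16.6 RPKM.

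**Figure D1:**
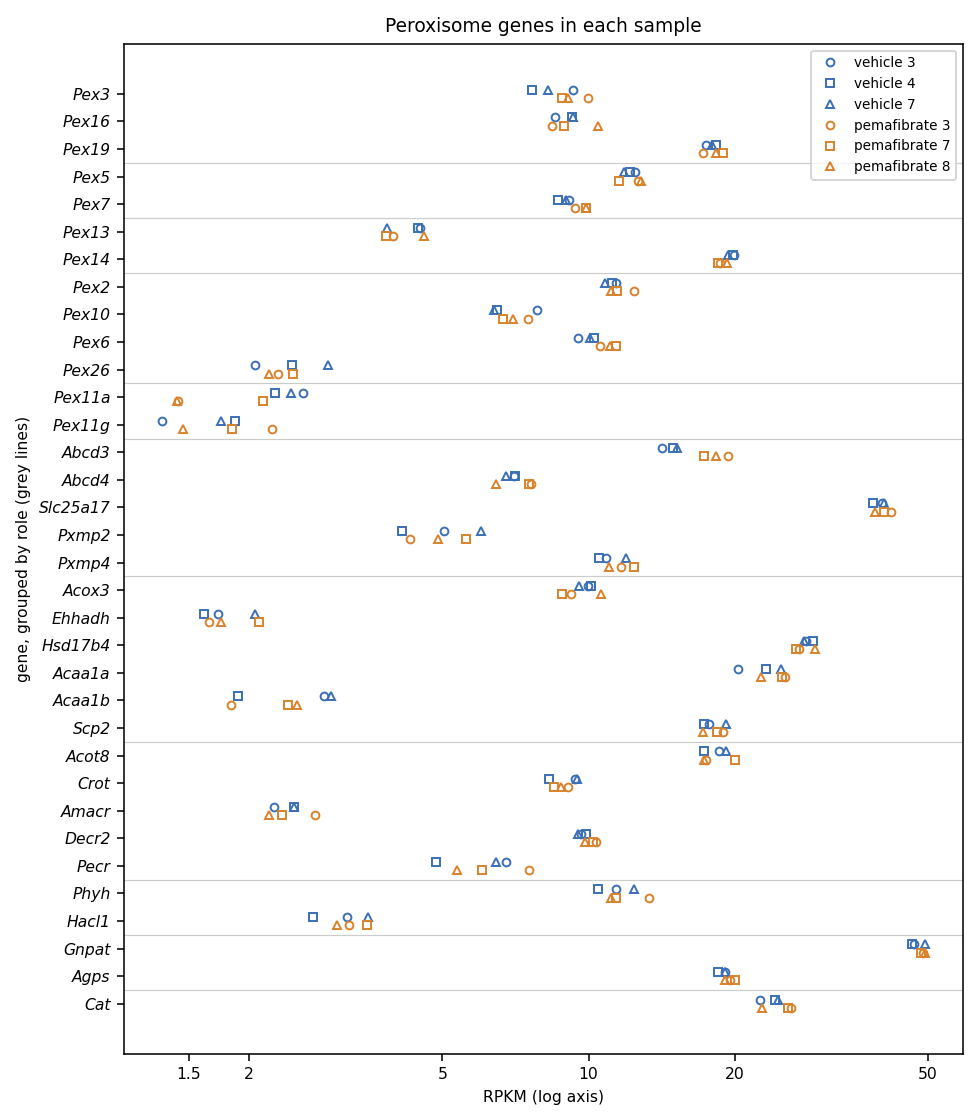
Level of the 34 tested peroxisome genes in RPKM (log axis) in each of the 3 vehicle samples (blue) and 3 pemafibrate samples (orange), with genes grouped by role between grey lines. Gnpat lies at the right near 48.2 RPKM, Pex11g and Ehhadh lie at the left, with means under 2 RPKM, and for most genes the colours mix.

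Between treatments most members differed little, and Abcd3 had the smallest p of the 34. With limma and Benjamini-Hochberg adjustment over all 11360 tested genes, 0 of 34 members passed an adjusted p of 0.05, where 0.352% of all tested genes did, 0.132% higher and 0.220% lower in pemafibrate. At an unadjusted p under 0.05 there were 4 members (11.8%), Abcd3, Pex6 and Pex7 with higher and Pex11a with lower values in pemafibrate, where 9.67% of all tested genes were below that level, 4.76% higher and 4.90% lower. The groups did not overlap in 5 members (14.7%), these 4 and Pex14, 3 higher and 2 lower, beside 15.0% of all tested genes, 7.67% higher and 7.31% lower. Voom on the whole reads recovered from the RPKM values called 1 member, Abcd3, higher in pemafibrate, beside 1.25% of the genes it tested in either direction and 0.464% in that direction. At an unadjusted p under 0.05 voom had 3 members (8.82%), beside 9.62% of its genes. Of the 34 members 24 (70.6%) had a log2 difference above 0, against 52.6% of all tested genes, and the members' median log2 difference was 0.033 against 0.0052 for all tested genes. The shares at an unadjusted p and without overlap lay near the background, while that of positive differences lay above it; no test was made over the list.

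For most members the data also bound the difference between the groups, given the variation among these 6 samples, which is possibly technical. The 95% interval was taken for the log2 difference in RPKM + 0.5. On that scale it lay inside a 1.5-fold change in either direction for 33 of 34 members (97.1%), all but Pex11a. Of all tested genes 92.5% did so. The interval lay inside a 1.25-fold change for 26 members (76.5%), beside 72.9% of all tested genes. These are intervals for single genes, not adjusted for their number. The added 0.5 understates the change of low genes, so their bounds are too tight. On the recovered reads voom gave log2 differences of 0.16 ± 0.24 (SE) for Pex11g and -0.18 ± 0.20 for Acaa1b, with larger errors than by limma. In the 29 tested members whose groups overlapped, log2 differences ran from -0.14 to 0.14, and the lowest limma adjusted p was 0.696. The tested members had 22 to 2666 reads in a library, and their median coefficient of variation among vehicle samples, 5.29%, lay beside a median of 5.34% for counting error alone.

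**Figure D2:**
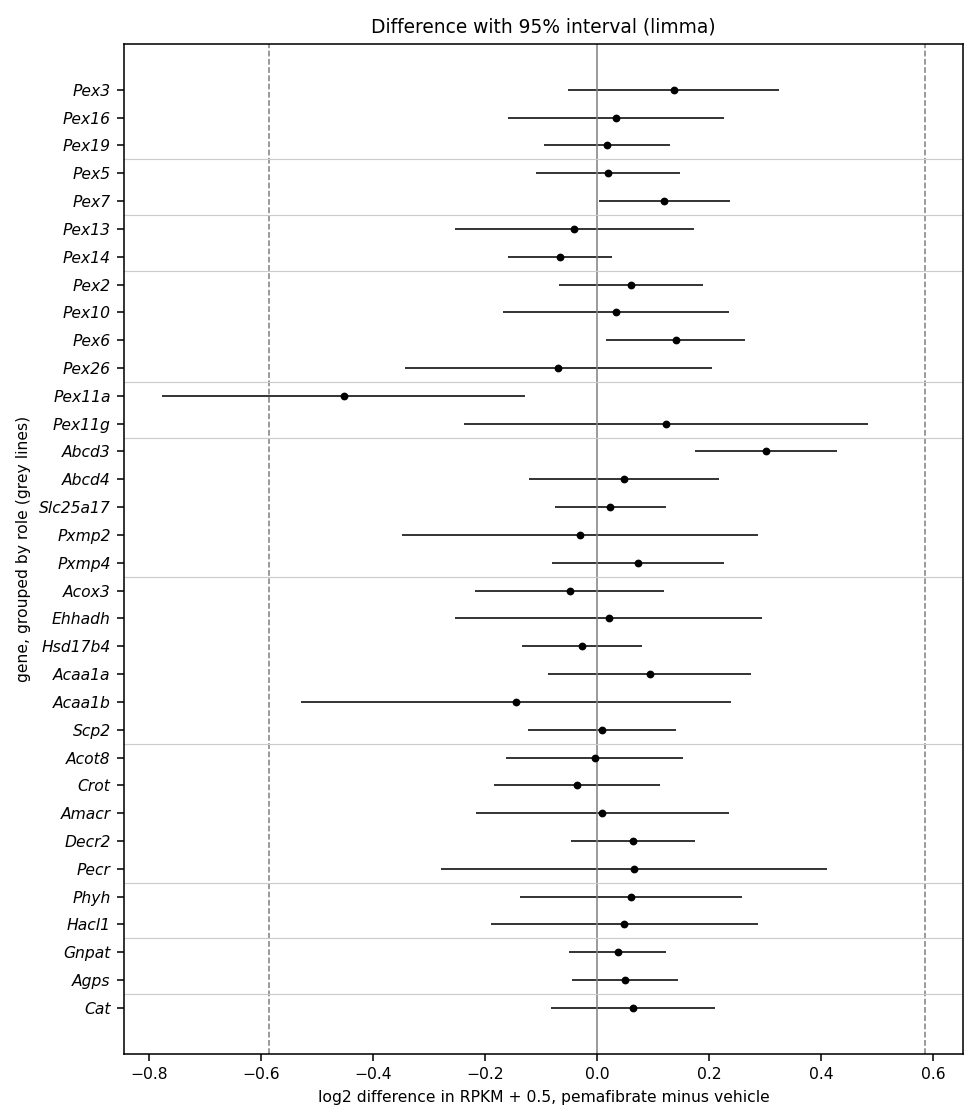
Log2 difference in RPKM + 0.5, pemafibrate minus vehicle, with its 95% interval from limma for the 34 tested peroxisome genes. Dashed lines mark a 1.5-fold change of RPKM + 0.5. Every interval except that of Pex11a lies between the dashed lines, and those of Abcd3, Pex6, Pex7 and Pex11a do not include 0.

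Among the membrane transporters, Abcd3 (chromosome 3, 121758904 to 121815302, GRCm38) encodes PMP70, which moves long-chain and branched acyl-CoA into the peroxisome. Abcd3 measured 14.2, 14.96 and 15.2 RPKM in vehicle 3, 4 and 7 and 19.4, 17.3 and 18.3 RPKM in pemafibrate 3, 7 and 8, from 872, 869 and 894 reads against 1207, 879 and 1100 reads. All pemafibrate samples lay above all vehicle samples, with pemafibrate 3 the highest. The group means were 14.8 ± 0.539 and 18.3 ± 1.03 RPKM (SD, n = 3 each), 24.1% higher in pemafibrate. The log2 difference was 0.30 ± 0.055 (SE), with a 95% interval from 0.17 to 0.43 and a limma adjusted p of 0.0860. Voom on the recovered reads gave a log2 difference of 0.31 and an adjusted p of 0.0150, and over 15 alternatives the adjusted p ran from 0.0150 to 0.626, with 2 of them passing. The voom call was lost without vehicle 3 (adjusted p = 0.120). Abcd3 had an adjusted p of 0.000674 in the authors' deposited table, the 1 tested member under 0.05 there, beside 2.46% of all tested genes.

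The other membrane proteins did not pass. Slc25a17, which encodes the peroxisomal carrier PMP34 for cofactors such as coenzyme A, measured 40.3, 38.5 and 40.6 RPKM in vehicle 3, 4 and 7 and 41.9, 40.5 and 39.0 RPKM in pemafibrate 3, 7 and 8. The Slc25a17 groups overlapped, with a log2 difference of 0.024 ± 0.043. Abcd4, a relative of Abcd3 that acts in lysosomal cobalamin transport, measured 6.75 to 7.04 RPKM in vehicle and 6.45 to 7.62 RPKM in pemafibrate. Abcd3 made up 68.0 ± 1.17% of the summed RPKM of the ABCD transporter genes in vehicle and 71.8 ± 2.14% in pemafibrate, from 66.9% to 69.2% and from 69.7% to 74.0%. Pxmp2, a channel protein of the peroxisomal membrane, had a log2 difference of -0.031 ± 0.14, and Pxmp4 one of 0.072 ± 0.066. Abcd2, which encodes a transporter of very long-chain acyl-CoA, had 1 read in vehicle 7, 1 read in pemafibrate 7 and 0 reads in the other libraries, so a difference was not detectable at this depth.

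The promoters of the 4 members at an unadjusted p under 0.05, and that of catalase, are shown because PPAR partners with RXR on direct repeats of the hexamer AGGTCA spaced by a single base. Each window runs from 250 bases before to 50 bases after a RefSeq start site (GRCm38.p6), is written 5′ to 3′ on the gene's strand, and shows 3 motifs of either strand in capitals. The first is the hexamer AGGTCA. Another is the GC box that SP1 binds, GGGCGG. The last is a core sequence bound by ETS factors, CCGGAAG.
Abcd3 (chr3:121815253-121815552, strand -): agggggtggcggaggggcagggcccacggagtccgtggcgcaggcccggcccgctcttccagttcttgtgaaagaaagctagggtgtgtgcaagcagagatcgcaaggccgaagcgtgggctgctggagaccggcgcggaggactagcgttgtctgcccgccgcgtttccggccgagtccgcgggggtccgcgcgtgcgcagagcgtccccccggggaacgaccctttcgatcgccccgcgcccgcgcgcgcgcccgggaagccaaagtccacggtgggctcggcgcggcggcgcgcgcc
Pex11a (chr7:79743082-79743381, strand -): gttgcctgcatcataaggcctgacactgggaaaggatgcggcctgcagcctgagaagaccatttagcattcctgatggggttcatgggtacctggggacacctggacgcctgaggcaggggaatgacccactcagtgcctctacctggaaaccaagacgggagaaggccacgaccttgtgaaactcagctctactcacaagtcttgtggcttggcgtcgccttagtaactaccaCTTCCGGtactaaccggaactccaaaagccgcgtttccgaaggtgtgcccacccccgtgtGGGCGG
Pex6 (chr17:46711226-46711525, strand +): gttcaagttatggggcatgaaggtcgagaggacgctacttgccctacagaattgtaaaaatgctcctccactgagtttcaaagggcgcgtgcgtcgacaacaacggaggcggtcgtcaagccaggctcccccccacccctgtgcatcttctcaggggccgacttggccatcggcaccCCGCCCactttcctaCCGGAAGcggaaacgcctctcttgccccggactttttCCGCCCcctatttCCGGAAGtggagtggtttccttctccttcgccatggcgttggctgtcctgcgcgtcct
Pex7 (chr10:19907625-19907924, strand -): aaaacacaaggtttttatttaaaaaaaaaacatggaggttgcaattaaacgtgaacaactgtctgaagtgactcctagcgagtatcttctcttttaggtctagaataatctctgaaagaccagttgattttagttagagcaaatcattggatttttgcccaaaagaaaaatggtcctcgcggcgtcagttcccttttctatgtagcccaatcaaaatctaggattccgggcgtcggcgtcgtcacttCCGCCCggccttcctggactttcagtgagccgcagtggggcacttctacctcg
Cat (chr2:103485104-103485403, strand -): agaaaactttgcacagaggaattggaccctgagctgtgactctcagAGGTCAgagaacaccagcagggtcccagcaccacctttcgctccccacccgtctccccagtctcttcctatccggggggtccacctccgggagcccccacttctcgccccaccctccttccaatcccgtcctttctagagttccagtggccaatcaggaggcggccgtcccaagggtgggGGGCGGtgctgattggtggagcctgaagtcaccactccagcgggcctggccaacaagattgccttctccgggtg
The repeat of AGGTCA after a single free base was searched on both strands and was in 0 of the 35 RefSeq windows of the 30 members matched by symbol, and in 13 of all 32851 windows (0.04%). With the hexamer AGGNCA repeated in the same way the counts were 0 of 35 and 125 of 32851 (0.381%). At shares so low, a count of 0 of 35 cannot tell the members from other genes. Sites outside the windows were not searched. A single AGGTCA, which also counts inside any repeat, was in 5 member windows (14.3%), those of Acot4, Cat, Pex11g, Phyh and Scp2, in 12.35% of the windows of tested genes and in 16.3% of all windows. GGGCGG was in 24 member windows (68.6%), in 63.5% of the windows of tested genes and in 35.7% of all windows. CCGGAAG was in 7 member windows, those of Pex11a and Pex6 among them, in 19.0% of the windows of tested genes and in 8.86% of all windows. The window of Abcd3 shown above held none of these letters and had a GC content of 73.7%. Another Abcd3 start site, with a window not shown, held none of them either, at a GC content of 76.3%. Neither window says anything about sites elsewhere. The median GC content was 57.3% over the member windows and 60.7% over those of tested genes.

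The division genes held the member with the lowest log2 difference. Pex11a (chromosome 7, 79735957 to 79743131) encodes a membrane protein that elongates peroxisomes before they divide and is known to respond to PPARalpha agonists in rodent liver. Pex11a measured 2.58, 2.26 and 2.43 RPKM in vehicle 3, 4 and 7 and 1.43, 2.13 and 1.42 RPKM in pemafibrate 3, 7 and 8. Pemafibrate 3 and 8 were well below every vehicle sample, while pemafibrate 7 lay just under vehicle 4. The log2 difference was -0.45 ± 0.14 (95% interval -0.78 to -0.13), with an unadjusted limma p of 0.0123 and an adjusted p of 0.324, and no alternative passed. The values rest on 41, 34 and 37 reads in vehicle and 23, 28 and 22 in pemafibrate, and the coefficient of variation in pemafibrate was 24.7% beside 20.3% for counting error alone. Pex11g, a relative that also acts in division, measured 1.32, 1.87 and 1.75 RPKM in vehicle and 2.23, 1.84 and 1.46 RPKM in pemafibrate, with overlap and a log2 difference of 0.12 ± 0.16.

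Among the genes for matrix protein import, small differences lay on both sides of 0. Pex6 (chromosome 17, 46711476 to 46725543) encodes an ATPase that pulls the import receptor back out of the membrane. Pex6 measured 9.53, 10.2 and 10.1 RPKM in vehicle 3, 4 and 7 and 10.6, 11.4 and 11.1 RPKM in pemafibrate 3, 7 and 8. Each pemafibrate sample lay above each vehicle sample, but by little: the log2 difference was 0.14 ± 0.053, with an unadjusted limma p of 0.0315 and an adjusted p of 0.449. Pex7 (chromosome 10, 19860090 to 19907674), the receptor for enzymes with the N-terminal signal PTS2, measured 9.10, 8.65 and 8.97 RPKM against 9.39, 9.90 and 9.87 RPKM. The Pex7 groups were also separate, with a log2 difference of 0.12 ± 0.050 and an adjusted p of 0.510 by limma. Voom gave Pex7 an unadjusted p of 0.258.

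Pex14 (chromosome 4, 148960535 to 149099843) encodes the docking protein at which loaded receptors arrive. Pex14 measured 19.9, 19.8 and 19.4 RPKM in vehicle 3, 4 and 7 and 18.6, 18.5 and 19.3 RPKM in pemafibrate 3, 7 and 8. The groups did not overlap, although vehicle 7 and pemafibrate 8 nearly met, and the log2 difference was -0.067 ± 0.040 (limma adjusted p = 0.700). Pex13, its partner in docking, had a log2 difference of -0.041 ± 0.092, and Pex5, the receptor for the C-terminal signal PTS1, one of 0.020 ± 0.055. Of the ubiquitin ligase subunits that mark the receptor for recycling, Pex2 had a log2 difference of 0.061 ± 0.055 and Pex10 one of 0.034 ± 0.087. Pex26, the membrane anchor of the export ATPases, had one of -0.069 ± 0.12. Among the genes that insert membrane proteins, Pex3, the docking factor, had a log2 difference of 0.14 ± 0.081, Pex16 one of 0.033 ± 0.083 and Pex19, the soluble chaperone, one of 0.017 ± 0.049. None of these passed the limma test at an adjusted or unadjusted p of 0.05.

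**Figure D3:**
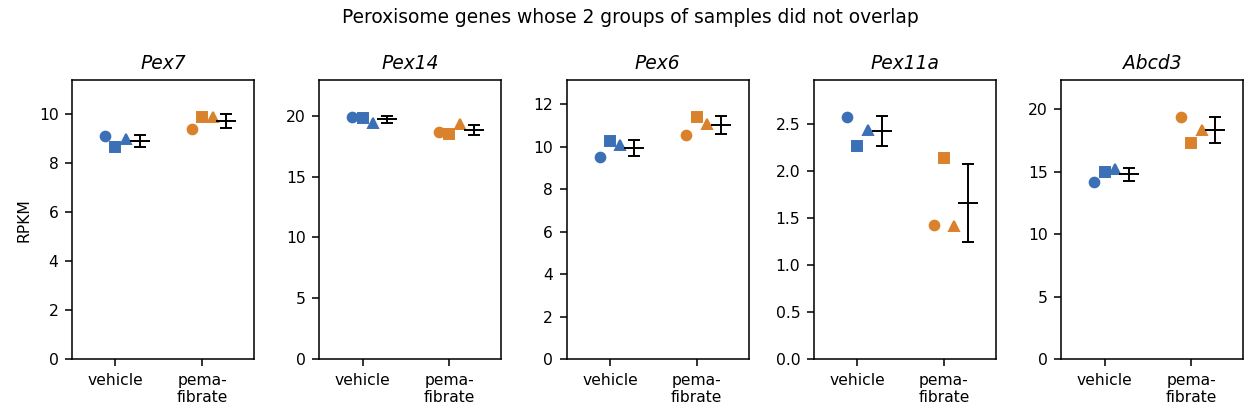
RPKM of the 5 peroxisome genes whose vehicle (blue) and pemafibrate (orange) samples did not overlap; circle, square and triangle stand for vehicle 3, 4 and 7 and for pemafibrate 3, 7 and 8, and bars for mean ± SD (n = 3). The gap is widest against the spread in Abcd3 (14.2 to 15.2 against 17.3 to 19.4 RPKM), and in Pex11a pemafibrate 7 (2.13 RPKM) lies close to the vehicle samples.

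The core enzymes of peroxisomal beta-oxidation were expressed but did not differ by the limma test. Hsd17b4 (chromosome 18, 50128201 to 50196270), the D-bifunctional protein that carries out the middle steps of the cycle, measured 28.1, 28.9 and 27.7 RPKM in vehicle 3, 4 and 7 and 27.2, 26.8 and 29.2 RPKM in pemafibrate 3, 7 and 8. The Hsd17b4 samples of both groups were mixed, with a log2 difference of -0.027 ± 0.046 (95% interval -0.13 to 0.079). Ehhadh, the L-bifunctional protein and a well-known PPARalpha target in rodent liver, measured 1.73, 1.61 and 2.06 RPKM in vehicle and 1.65, 2.09 and 1.75 RPKM in pemafibrate, and the log2 difference was 0.020 ± 0.12. Hsd17b4 thus held 94.0 ± 0.828% of the summed RPKM of both bifunctional enzymes in vehicle and 93.8 ± 0.899% in pemafibrate. Acox3, an acyl-CoA oxidase for branched substrates, had a log2 difference of -0.050 ± 0.073, and Scp2, which encodes a sterol carrier and thiolase, one of 0.0086 ± 0.057. Acox2, an oxidase of bile acid intermediates, had 0 reads in all vehicle libraries, which allows up to 0.0435 RPKM over that group (3 reads, counting error only), and 1 read in pemafibrate 7.

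Besides Scp2, the thiolases of the last step include a pair, Acaa1a and Acaa1b, whose sequences are close. Of all 50-base windows in the transcripts, 12.4% of those of Acaa1a and 30.5% of those of Acaa1b were in both genes, so reads could be split between them by the counting, and both levels are uncertain. Acaa1a (chromosome 9, 119341028 to 119350296) measured 20.4, 23.2 and 24.9 RPKM in vehicle 3, 4 and 7 and 25.3, 25.02 and 22.6 RPKM in pemafibrate 3, 7 and 8. Vehicle 3 was the lowest, the other samples were mixed, and the log2 difference was 0.094 ± 0.078, with 0.016 without vehicle 3 and 0.16 without vehicle 7. Acaa1b, the copy known to rise with PPARalpha agonists in rodent liver, measured 2.85, 1.89 and 2.94 RPKM against 1.83, 2.41 and 2.51 RPKM, with overlap and a log2 difference of -0.14 ± 0.17. Acaa1a held 89.9 ± 2.40% of their summed RPKM in vehicle and 91.5 ± 1.64% in pemafibrate.

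The auxiliary enzymes and those of alpha-oxidation were likewise within the spread. Acot8, a thioesterase that frees fatty acids from coenzyme A, measured 17.3 to 19.2 RPKM in vehicle and 17.3 to 20.1 RPKM in pemafibrate. Crot, the carnitine transferase that prepares shortened chains for export, had a log2 difference of -0.037 ± 0.064. Amacr, the racemase for branched acyl-CoA, had one of 0.0090 ± 0.098, and the reductases Decr2 and Pecr had ones of 0.064 ± 0.048 and 0.066 ± 0.15. Acot4, a thioesterase known as a PPARalpha target in mouse liver, had 2, 2 and 0 reads in vehicle 3, 4 and 7 and 1 read in each pemafibrate library, so no difference was detectable at this depth. In alpha-oxidation, which removes a single carbon from branched chains such as phytanic acid, Phyh had a log2 difference of 0.061 ± 0.086 and Hacl1, the lyase, one of 0.049 ± 0.10.

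Ether lipid synthesis gave the most abundant member. Gnpat (chromosome 8, 124863033 to 124890057), the acyltransferase that opens the pathway, measured 46.9, 46.4 and 49.3 RPKM in vehicle 3, 4 and 7 and 48.8, 48.3 and 49.3 RPKM in pemafibrate 3, 7 and 8. Vehicle 7 and pemafibrate 8 were the highest of their groups and nearly equal, and the log2 difference of 0.037 ± 0.037 had a 95% interval from -0.050 to 0.12. Agps, the enzyme that forms the ether bond, measured 18.5 to 19.1 RPKM in vehicle and 19.1 to 20.03 RPKM in pemafibrate; its log2 difference was 0.050 ± 0.041, with an adjusted p of 0.793 by limma. Catalase (Cat, chromosome 2, 103453904 to 103485153), which splits hydrogen peroxide made by the oxidases, measured 22.5, 24.2 and 24.5 RPKM in vehicle and 26.2, 25.8 and 22.7 RPKM in pemafibrate. Pemafibrate 3 and 7 were above all vehicle samples and pemafibrate 8 was not, and the log2 difference was 0.064 ± 0.063, from 0.027 without vehicle 3 to 0.13 without pemafibrate 8.

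Summed over all 37 genes, the level was 424, 418 and 437 RPKM in vehicle 3, 4 and 7 and 444, 439.5 and 431 RPKM in pemafibrate 3, 7 and 8, with overlap. Exons of some members overlap other genes in GENCODE M21, and the strand setting of the counting was not given, so such reads cannot be told apart: 28.3% of the exon bases of Pex14 and 41.1% of those of Pex11g are covered on the other strand, and 31.1% of those of Hacl1 on the same strand.

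**Figure D4:**
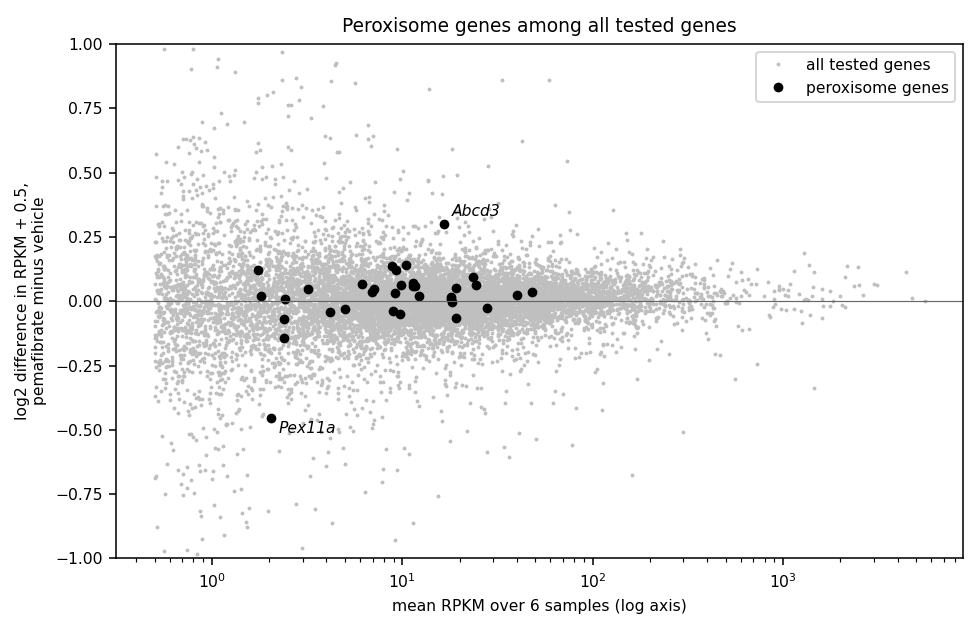
Log2 difference in RPKM + 0.5, pemafibrate minus vehicle, against mean RPKM over the 6 samples (log axis) for all 11360 tested genes (grey) and the 34 tested peroxisome genes (black); 44 tested genes lie outside the vertical range. Abcd3 has the highest member difference (0.30) and Pex11a the lowest (-0.45), and the others lie between -0.14 and 0.14.

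Further peroxisomal genes and the wider PPARalpha programme gave few calls. In a list of 83 other peroxisome genes, 58 were tested; 0 passed limma, beside 0.352% of all tested genes. Under an unadjusted p of 0.05 there were 5 (8.62%), 3 higher and 2 lower, beside 9.67% of all tested genes, and voom called 0, beside 1.25% of its genes. Their median log2 difference was 0.0049, close to 0.0052 for all tested genes. The lowest p belonged to Hsdl2, a dehydrogenase-like protein, with 14.0 ± 0.733 and 16.1 ± 0.427 RPKM in vehicle and pemafibrate (log2 difference 0.19 ± 0.052, limma adjusted p = 0.252), followed by Lonp2, the peroxisomal protease, with 68.7 ± 3.15 and 74.6 ± 0.495 RPKM (0.12 ± 0.041). For Prdx5, a peroxiredoxin, the difference in log2 was -0.10 ± 0.037, with an adjusted p of 0.412 by limma. In a list of 61 PPARalpha targets outside the peroxisome, 39 were tested. Limma called 1 (2.56%), beside 0.352% of all tested genes; 4 (10.3%) were under an unadjusted p of 0.05, 3 higher and 1 lower, beside 9.67%; and 6 (15.4%) had separate groups, 4 higher and 2 lower, beside 15.0%. The called gene was Mgll, the monoacylglycerol lipase, which fell: 6.28 ± 0.214 RPKM in vehicle and 4.33 ± 0.192 RPKM in pemafibrate, -0.49 ± 0.063 in log2, with an adjusted p of 0.0362 by limma. Mgll kept its direction in all 15 alternatives but passed in 7 of them, with adjusted p from 0.00165 to 0.346. The call was lost without each single sample (adjusted p = 0.0763 to 0.166), with the replicate block and with no filter. Cd36, a fatty acid transporter, stood higher in pemafibrate, at 0.816, 0.790 and 0.589 RPKM in vehicle 3, 4 and 7 and 1.06, 1.42 and 1.49 RPKM in pemafibrate 3, 7 and 8. The Cd36 groups were separate and the log2 difference was 0.56 ± 0.15, with an adjusted p of 0.223 by limma and 0.0607 by voom. In the authors' deposited comparison the adjusted p was 0.00281 for Cd36 and 4.08e-06 for Mgll. Among 12 tested receptors and partners of 16, 0 passed limma, 2 (16.7%) were under an unadjusted p of 0.05, and voom called 1 (8.33%), beside 0.352%, 9.67% and 1.25% of all genes tested by the same rules. That gene was Rxra, the partner of PPAR receptors. Rxra measured 10.2, 10.18 and 10.01 RPKM in vehicle 3, 4 and 7 and 12.7, 12.97 and 11.9 RPKM in pemafibrate 3, 7 and 8. Its groups were separate and its log2 difference was 0.29 ± 0.050, with an adjusted p of 0.0721 by limma. The authors' deposited comparison gave Rxra an adjusted p of 0.000501.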

How the data were processed

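The authors deposited a table of RPKM per gene and sample, beside which stand the log2 fold change and the raw and adjusted p-value of the authors' own comparison, per the file headers; a rank, an other kind of column, was not used. Libraries were stranded and made from messenger RNA, per the labels' protocols. Reads were trimmed with Trimmomatic 0.35, and HISAT2 2.1.0, featureCounts 1.4.6 and edgeR are also named, with GRCm38, per the submitters' processing notes. Annotation and strand setting: not given in the sources used here.

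A mean of at least 0.5 RPKM was required for testing. Values as log2(RPKM + 0.5), a scale that understates the change of low genes, entered limma (version 3.58.1, R 4.3.3) with a trend, for 3 pemafibrate against 3 vehicle samples, and p-values were adjusted over all 11360 genes by Benjamini-Hochberg. Whole reads were recovered for all 16822 genes above 0 (relative tolerance 1e-09), with library sizes that made gene lengths whole; voom took genes averaging at least 10 of these reads. The fits were tested on simulated data. All sample pairs within groups varied beyond sampling noise (chi-square per degree of freedom 2.78 to 8.27). The planned search for protein import signals was not run, since no protein sequences were used here.

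The peroxisome genes and the other lists were chosen with earlier results of these data known. Values in every sample are given for members with a call, an unadjusted p under 0.05 or separate groups, for the 6 highest members and for the thiolase copies, and for others by role. From the other lists the rule took up to 6 genes with the smallest p and the main receptors; some of these are not reported here. Plots used matplotlib 3.10.9 and Python 3.11.15.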

Additional observations from a re-analysis of the deposited data

How the results depend on the processing

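Among the 34 members 0 passed limma and 4 were under an unadjusted p of 0.05. The count of called members became 1, Abcd3, with array weights and with voom on the recovered reads; it was 0 with pseudocounts of 0.1 and 1, quantile normalization, median ratio scaling, a filter at 2 RPKM or none, the replicate block and each sample left out. The 4 members at an unadjusted p under 0.05 became 2 with the title number as a replicate block, and 2 to 4 with each sample left out, with 2 without vehicle 7 and without pemafibrate 7. The 40 genes called among 11360 tested became 7 of 16822 with no filter, 148 of 11857 with voom, and, among the same 11360, 140 with array weights, 0 with the replicate block, and 0 to 25 with each sample left out (for vehicle 3, 4 and 7 left out, 2, 8 and 19; for pemafibrate 3, 7 and 8 left out, 25, 0 and 17); the cause was not tested. The replicate block and each omission leave fewer degrees of freedom for the error than the main fit. Power to call a gene is lower there, so a lost call is not evidence of no difference. Numbers 3 and 7 occur in both groups, and the labels do not say what a number marks, so the samples were not treated as pairs. Across genes, deviations from the group means correlated at 0.030 for number 3, at -0.0083 for number 7, and at 0.18 for vehicle 7 with pemafibrate 3; in the block, vehicle 4 and pemafibrate 8 have no partner and add nothing to the difference. With each sample left out, the log2 difference lay between -0.0020 and 0.051 for Slc25a17, 0.016 and 0.16 for Acaa1a, 0.027 and 0.13 for Cat, 0.020 and 0.063 for Gnpat, and -0.066 and -0.0032 for Hsd17b4, none of them called. The log2 differences of Abcd3 (0.26 to 0.34), Pex11a (-0.60 to -0.34), Pex6 (0.11 to 0.18), Pex7 (0.089 to 0.14) and Pex14 (-0.084 to -0.055) kept their direction in all 15 alternatives. The alternatives for Mgll, Cd36 and Rxra, and leaving out samples within voom, were added after seeing the data; the latter gave Abcd3 an adjusted p of 0.0199 to 0.120. Depth limits Abcd2, Acox2 and Acot4, with 0 to 2 reads in a library, and Pex11a, with 22 to 41.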
